A study of Mus musculus with 12 samples.

Results

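Kinesins and the genes of the kinetochore and spindle checkpoint were followed across 12 arrays of mouse blastocysts. They were chosen by gene symbol alone, as probe sets paired with a single gene that is a numbered Kif gene, a Cenp gene with a single letter, or one of 16 named genes of mitosis. The rule found 73 genes with 170 probe sets, of 18193 genes that have a probe set of their own on the array. There were 37 kinesins, 20 centromere proteins, 5 genes of the spindle checkpoint (Bub1, Bub1b, Bub3, Mad2l1 and Ttk), the 4 subunits of the Ndc80 complex, the 4 mitotic kinases Aurka, Aurkb, Plk1 and Nek2, 2 genes of the anaphase-promoting complex pathway (Ube2c and Cdc20), and Ndel1.

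Total RNA was taken from blastocysts in 3 groups, each with 4 arrays. The Ca-free group had been cultured in medium without Ca, the 20 pulses group had been given 20 pulses, and the control group is described as normal blastocysts. Because the title concerns Ca2+ oscillations after fertilisation, the comparisons bear on how blastocyst mRNA differs once those oscillations have been altered. The mouse strain, the form of a pulse, the time in Ca-free medium, the number of embryos per sample and whether replicates were separate collections are not stated by the labels. The p-values therefore cover the spread between these samples, which may be technical.

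Kinesins are motor proteins that use ATP to move along microtubules. Some carry organelles and vesicles, and others push spindle poles apart, shorten microtubules or hold chromosomes to the spindle. The kinetochore is the protein assembly built on centromeric chromatin by the Cenp proteins, and its outer Ndc80 complex binds microtubules. Until every chromosome is attached, the spindle checkpoint keeps Cdc20 from activating the anaphase-promoting complex, the ubiquitin ligase that starts anaphase. Blastomeres of the early embryo divide often, and they build their first spindles without centrosomes.

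Values are signals, scaled so that the trimmed mean of each array is 500. Changes are differences of log2(signal + 32), which understates the change of low signals, and they are called where limma's adjusted p (Benjamini-Hochberg over 27808 probe sets) was under 0.05. A probe set was tested if its mean signal over the 12 arrays was at least 100, which kept 130 of the 170 probe sets and 65 of the 73 genes. The other 8 genes were Cenpb, Kif14, Kif1a, Kif26a, Kif27, Kif28, Kif2b and Kif7, none of which passed a signal of 169 on any array. Signals of different probe sets were not compared with each other, since each has its own scale.

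The Ca-free arrays differed from the others as a whole. Their median deposited intensity was 38.3 to 39.2, against 47.4 to 53.7 for 20 pulses and 49.4 to 53.0 for control, at the same trimmed mean. The mean of the log2 3' to 5' ratios of Actb and Gapdh was lower in Ca-free than in control (log2 difference -0.54, exact permutation p = 0.0286, the smallest of 70 arrangements of 4 against 4). The Gapdh ratio was 5.05, 3.1, 2.89 and 4.73 in Ca-free, against 6.28, 5.76, 7.62 and 8.9 in control. The Actb ratio was 1.78, 1.88, 1.69 and 1.88 in Ca-free, above control arrays 1 and 2 and below control arrays 3 and 4. Control arrays 3 and 4 had an Actb 3' to 5' ratio of 2.69 and 2.64, and control arrays 1 and 2 one of 1.59 and 1.67. The marker genes of inner cell mass (8 of 8), trophectoderm (8 of 8) and primitive endoderm (6 of 6) had mean signals of at least 100. Of the oocyte markers 7 of 8 did, with Mos near 0 at 11.8. Markers of oviduct and uterine epithelium did in 6 of 7, so this level does not tell the labelled tissue from others.

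Against control, 16 of the 130 tested probe sets were higher in Ca-free blastocysts (12.3%, against 10.6% of all tested probe sets) and 29 were lower (22.3%, against 29.7%). Both shares lie near or below those of the array as a whole. By family, kinesins had 6 probe sets higher and 20 lower of 72, centromere proteins 5 and 4 of 29, the spindle checkpoint 3 and 1 of 11, the mitotic kinases 1 and 1 of 7, the anaphase-promoting complex pathway 1 and 1 of 4, the Ndc80 complex 0 and 2 of 5, and Ndel1 0 and 0 of 2. The median change of the members was -0.03, and that of all tested probe sets -0.18. Every Ca-free array lay above every control array in 17 member probe sets (13.1%, against 9.23% of all) and below in 27 (20.8%, against 27%). With the brightest probe set standing for each gene, 11 of 65 genes were higher and 11 lower. No share by gene was computed for the whole array. In whole embryos, fewer cells of a type and less RNA per cell cannot be told apart.

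The direction of a call went with the signal, as it did over the whole array. Among members with a mean signal of at least 1000, 8 of 36 probe sets were higher (22.2%, against 30.1% of all such probe sets) and 1 was lower (2.78%, against 8.43%). Between 300 and 1000, 8 of 51 were higher (15.7%, against 8.71%) and 11 lower (21.6%, against 31%). Below 300, 0 of 43 were higher by limma's adjusted p (2.39% of all), with 1 at an unadjusted p under 0.05, and 17 were lower (39.5%, against 39%). The choice of scaling moves this balance, since the median over all tested probe sets was -0.18 with the trimmed mean, -0.02 with quantile normalization, 0.19 with median scaling and -0.36 with scaling to the hybridization controls. The calls described first are therefore those made in the same direction with the trimmed mean, quantile and median scalings. There were 13 higher (10%, against 6.44% of all tested probe sets) and 6 lower (4.62%, against 4.51%), and with hybridization control scaling added 7 higher (5.38%, against 2.75%) and 6 lower (4.62%, against 4.51%).

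**Figure D1:**
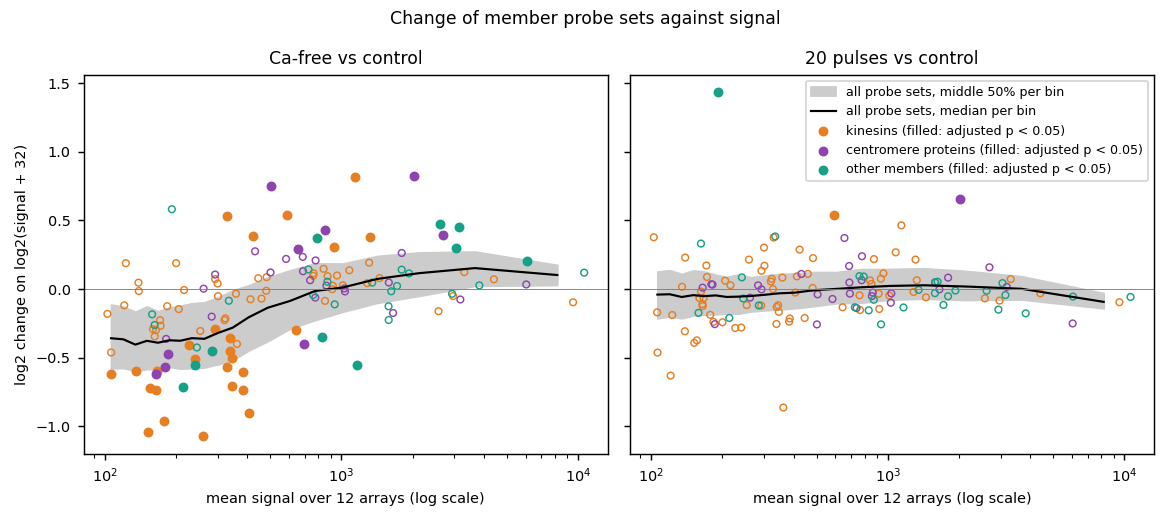
Change of each tested member probe set (y axis, log2 scale) against its mean signal over the 12 arrays (x axis, log scale) for Ca-free against control (left) and 20 pulses against control (right). The line and grey band are the median and the middle 50% of all tested probe sets in bins of signal. In Ca-free the filled points of low signal lie below 0 and nearly all of those above 1000 lie above it, while only 3 points are filled for 20 pulses.

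The motor of the kinetochore showed the largest increase. Cenpe, a kinesin that sits at the kinetochore and brings chromosomes to the middle of the spindle, read 2740, 2270, 2409 and 2513 in Ca-free, against 1571, 1534, 1222 and 1239 in control (probe set 1439040_at). Every Ca-free array lay above every control array, and control arrays 3 and 4, those with the higher Actb ratio, were the lowest of all. The log2 change was 0.83 (SE 0.10, adjusted p = 1.68e-04), 0.66 against control arrays 1 and 2 alone and 0.99 against control arrays 3 and 4 alone. A second probe set of Cenpe, 1435005_at, did not show this. It read 1593, 1625, 1590 and 1603 in Ca-free, against 1455, 1694, 1563 and 1496 in control (log2 change 0.05, adjusted p = 0.595), and its groups overlapped.

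Among the other centromere proteins, Cenpp, Cenps and Cenpw had probe sets that rose. Cenpp, a subunit of the constitutive network on centromeric chromatin, read 655, 754, 754 and 642 in Ca-free, against 302, 342, 499 and 500 in control (1432361_a_at). The groups did not overlap, and the log2 change was 0.75 (adjusted p = 0.00702), but against control arrays 3 and 4 alone it was 0.46 (adjusted p = 0.11). Cenps, a histone-fold subunit of the same network, read 1074, 1047, 1005 and 1065 in Ca-free, against 669, 701, 842 and 888 in control (log2 change 0.43, adjusted p = 0.00647). Again no Ca-free array fell within the range of the controls. Cenpw, the histone-fold partner of Cenpt, rose on both of its probe sets. On 1429156_at it read 3092, 2747, 3575 and 2955 in Ca-free, against 2056, 2252, 2555 and 2525 in control (log2 change 0.39, adjusted p = 0.00737), though not under all 3 scalings, and on 1453053_at the log2 change was 0.29 (adjusted p = 0.0208).

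The histone variant Cenpa, which marks the centromere, was not called on its brightest probe set (log2 change 0.03, adjusted p = 0.703), while 1441864_x_at was called lower (-0.62, adjusted p = 0.00377). Cenpv, at 558, 507, 603 and 605 in Ca-free, against 690, 654, 869 and 845 in control, was the only centromere gene called lower on its brightest probe set (log2 change -0.40, adjusted p = 0.00773), a call not made under all 3 scalings. Several of these genes varied within the Ca-free group, with arrays 1 and 4 on one side and arrays 2 and 3 on the other. Cenpf, a large protein of the outer kinetochore, read 2283 and 2356 on Ca-free arrays 1 and 4 and 1701 and 1674 on arrays 2 and 3. Cenpm had the same order, with 850 and 869 on arrays 1 and 4 and 613 and 590 on arrays 2 and 3. Cenpi had the opposite order, at 387 and 364 on arrays 1 and 4 and 592 and 596 on arrays 2 and 3. On these probe sets, the brightest of each gene, none of the 3 was called against control, with log2 changes of 0.26, 0.13 and 0.28 for Cenpf, Cenpm and Cenpi. Another probe set of Cenpf, 1452334_at, was called lower in Ca-free (-0.48, adjusted p = 0.0142).

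**Figure D2:**
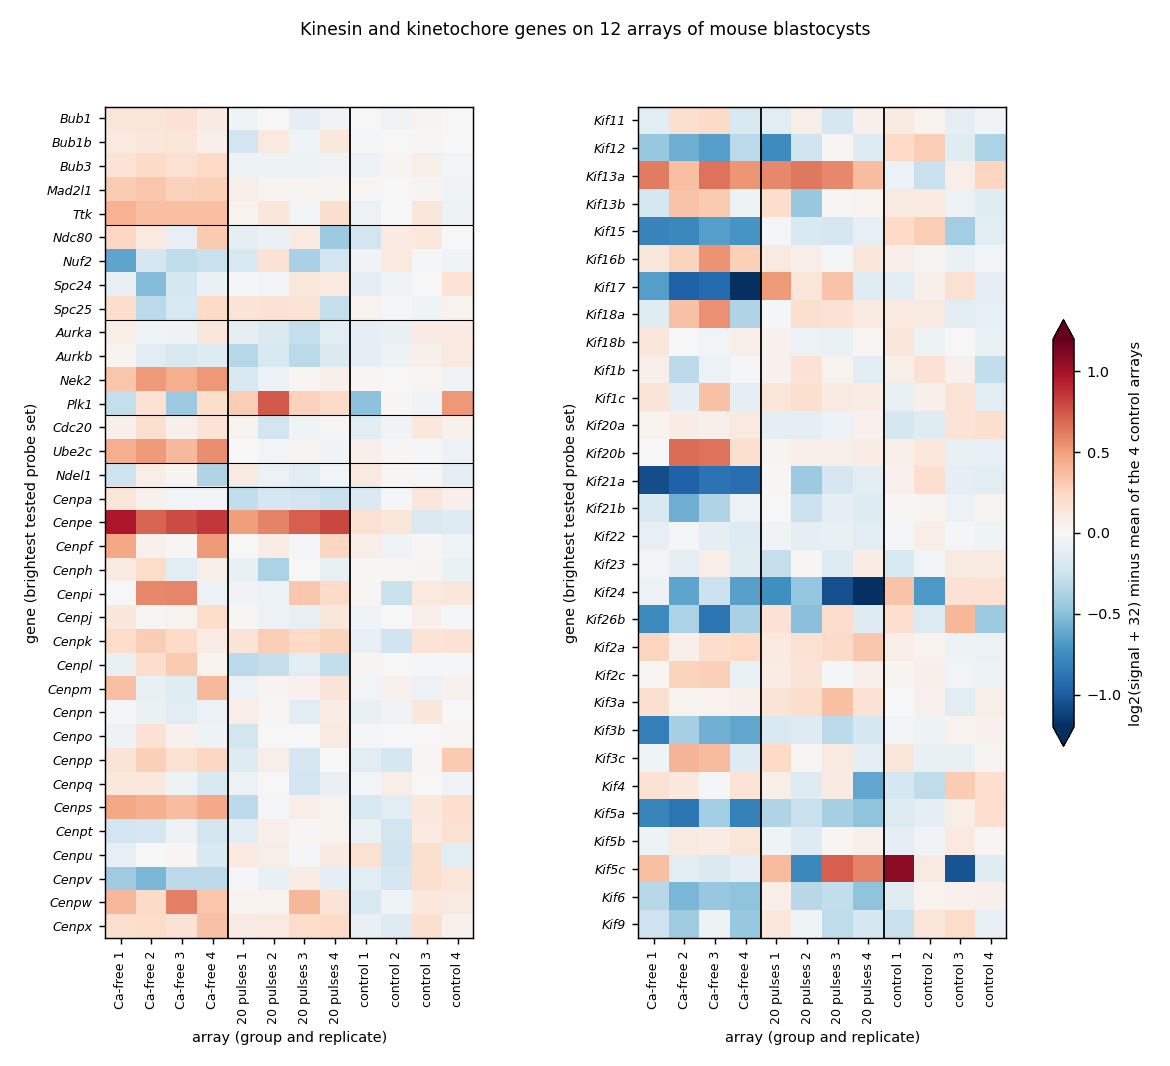
Log2(signal + 32) of the brightest tested probe set of each of the 65 tested genes (rows) on each of the 12 arrays (columns: Ca-free, 20 pulses, control), as the difference from the mean of the 4 control arrays; colours saturate at 1.2 either way. Cenpe is raised on all Ca-free and 20 pulses arrays, Mad2l1, Ttk, Nek2, Ube2c and Cenps on the Ca-free arrays, and Kif17 and Kif21a are low on the Ca-free arrays.

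In the spindle checkpoint, 3 of 5 genes rose on their brightest probe set, where over the whole array 30.1% of the probe sets averaging 1000 or more, and 8.71% of those averaging 300 to 1000, were called higher. Mad2l1, the protein that binds and blocks Cdc20, read 3482, 3552, 3400 and 3421 in Ca-free, against 2838, 2790, 2865 and 2728 in control, a change of 0.30 (adjusted p = 7.49e-04). Ttk, the kinase that starts checkpoint signalling at unattached kinetochores, read 949, 910, 910 and 908 in Ca-free, against 665, 704, 773 and 671 in control, a change of 0.37 (adjusted p = 0.00305). Neither gene's groups overlapped, and the 4 Ca-free arrays lay close together. Bub3, which carries Bub1 and Bub1b to the kinetochore, read 6549, 6861, 6647 and 6877 in Ca-free, against 5544, 5961, 6144 and 5713 in control (log2 change 0.21, adjusted p = 0.00392). Bub3 was not called with quantile normalization (0.08, adjusted p = 0.112).

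The checkpoint kinase Bub1 read 1950, 1951, 1982 and 1884 in Ca-free, against 1760, 1703, 1804 and 1765 in control, and its relative Bub1b read 2039, 2071, 2076 and 1965 in Ca-free, against 1858, 1879, 1904 and 1880 in control. In both genes every Ca-free array lay above every control array, but neither was called (log2 changes 0.14 for Bub1 and 0.11 for Bub1b, adjusted p = 0.065 and 0.24), and Bub1's probe set 1438571_at was called lower (-0.46, adjusted p = 0.04). With trimmed mean scaling the brightest probe sets of all 5 checkpoint genes had positive changes, of 0.11 to 0.37. Over the whole array the median change was 0.10 at mean signals of at least 1000, near those of Bub1 and Bub1b. At 300 to 1000 it was -0.14. Every Ca-free array lay above every control array in 9.23% of all tested probe sets. With scaling to the hybridization controls, which themselves read higher in Ca-free by 0.21 (exact permutation p = 0.0286), Mad2l1 (0.10) and Ttk (0.17) were no longer called, and Bub3 (-0.000687), Bub1 (-0.062) and Bub1b (-0.090) were below 0.

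The anaphase-promoting complex pathway divided. Ube2c, the ubiquitin-conjugating enzyme that serves the complex, read 3145, 3319, 3050 and 3415 in Ca-free, against 2418, 2342, 2301 and 2210 in control. That is 3232 ± 165 against 2318 ± 86.5 (SD, n = 4 each), with no overlap, a log2 change of 0.47 (SE 0.06) and an adjusted p of 1.95e-04 in limma, and the call was also made with hybridization control scaling, but not with the second set of these controls (0.11, adjusted p = 0.356). Cdc20, the activator that the checkpoint restrains, read 10870, 11910, 10900 and 11720 in Ca-free, against 9497, 10140, 11360 and 10840 in control on its brightest probe set. The groups overlapped (log2 change 0.12, adjusted p = 0.161), but its probe set 1439394_x_at was called lower (-0.55, adjusted p = 0.0031).

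Of the mitotic kinases, Nek2 was called higher, except with the second set of hybridization controls (0.085, adjusted p = 0.452). Nek2, which separates the centrosomes before mitosis, read 3556, 4023, 3818 and 4069 in Ca-free, against 2857, 2802, 2875 and 2745 in control (1437580_s_at, log2 change 0.45, adjusted p = 4.2e-04). The lowest Ca-free array stood above the highest control array by more than the whole range of the controls. Aurka and Aurkb, the Aurora kinases of the spindle poles and of the centromere, were not called. Aurka read 4174, 3823, 3785 and 4339 in Ca-free, against 3656, 3720, 4240 and 4223 in control (0.03, adjusted p = 0.784). Aurkb read 1042, 923, 886 and 914 in Ca-free, against 937, 977.5, 1063 and 1104 in control (-0.11, adjusted p = 0.293). In both the groups overlapped. Plk1, a kinase needed at many steps of mitosis, read 240, 341, 214 and 351 in Ca-free, against 203, 303, 291 and 445 in control, with wide and overlapping groups (-0.09, adjusted p = 0.753).

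No subunit of the Ndc80 complex was called higher on its brightest probe set, except with median scaling, where Ndc80 (0.54, adjusted p = 0.00262) and Spc25 (0.39, adjusted p = 0.0203) were. Nuf2 read 587, 798.5, 747 and 765 in Ca-free, against 897, 1011, 911 and 897 in control, with every Ca-free array below every control array. Its change of -0.35 was called (adjusted p = 0.0292), but not with quantile normalization (adjusted p = 0.0593), without Ca-free array 1 (-0.26, adjusted p = 0.092) or without control array 2 (-0.31, adjusted p = 0.0769). Ndc80 itself read 855, 778, 668 and 897 in Ca-free, against 609, 768, 784 and 720 in control (0.14, adjusted p = 0.371). Spc24 read 1536, 1137, 1410 and 1548 in Ca-free, against 1524, 1577, 1638 and 1838 in control (-0.23, adjusted p = 0.0737), and it was called lower with quantile normalization (-0.29, adjusted p = 0.0354) and with hybridization control scaling (-0.43, adjusted p = 0.00397). In both genes the groups overlapped. Spc25 read 1854, 1267, 1390 and 1895 in Ca-free, against 1642, 1567, 1535 and 1643 in control, so Ca-free arrays 1 and 4 lay above and arrays 2 and 3 below all controls (-0.02, adjusted p = 0.928). Another probe set of Spc25, 1453815_at, read 162 to 186 in Ca-free and 231 to 289 in control (-0.55, adjusted p = 0.00185), a call not made with quantile or median scaling.

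Promoter sequences are shown for the 5 genes of the checkpoint, kinases and ubiquitin pathway called higher in Ca-free on their brightest probe set. Another probe set of one of them, Nek2, was called lower. Cenpe and Ndel1, each with a probe set called after 20 pulses, are shown too. Genes of mitosis are often controlled by a CCAAT box, bound by NF-Y, and by the cell cycle genes homology region, which commonly reads TTTGAA. Both motifs were searched on both strands (CCAAT, read ATTGG on the other strand, and TTTGAA, read TTCAAA there) from 250 bases before to 50 bases after each RefSeq start (GRCm38.p6). A window counted once for each motif, however many hits it held and whether or not they overlapped. TTTGAA stood in 37.0% of the 73 windows of 65 matched members, against 17.9% of 32851 windows of all genes, and CCAAT in 57.5% against 37.4%. Kinesins had CCAAT in 42.9% of windows and the other members in 71.1%. Of the 12 genes with a probe set higher in Ca-free under 3 scalings, 11 were matched, and of their 12 windows 3 held TTTGAA and 7 (58.3%) held CCAAT, against 39.3% and 57.4% of the windows of the other members. The last 120 bases before the start follow, 5' to 3' on the gene's strand, with capitals for either motif. They lie at chr2:164769809-164769928 (Ube2c), chr7:131560250-131560369 (Bub3), chr9:83834569-83834688 (Ttk), chr1:191821353-191821472 (Nek2), chr6:66535101-66535220 (Mad2l1) and chr3:135212443-135212562 (Cenpe), all on the plus strand, and at chr11:68853136-68853255 on the minus strand (Ndel1).
Ube2c: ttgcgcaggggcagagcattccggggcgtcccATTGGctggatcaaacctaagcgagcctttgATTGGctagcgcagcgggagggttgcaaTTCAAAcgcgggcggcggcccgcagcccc
Bub3: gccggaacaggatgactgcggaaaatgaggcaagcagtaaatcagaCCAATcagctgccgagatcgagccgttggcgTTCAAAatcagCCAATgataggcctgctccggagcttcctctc
Ttk: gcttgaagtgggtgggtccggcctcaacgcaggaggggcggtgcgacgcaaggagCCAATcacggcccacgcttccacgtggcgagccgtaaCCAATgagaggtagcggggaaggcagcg
Nek2: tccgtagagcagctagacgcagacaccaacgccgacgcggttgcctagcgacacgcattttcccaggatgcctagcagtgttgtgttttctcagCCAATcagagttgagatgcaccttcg
Mad2l1: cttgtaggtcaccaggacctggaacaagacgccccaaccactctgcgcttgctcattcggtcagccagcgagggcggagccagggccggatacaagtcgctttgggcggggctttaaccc
Cenpe: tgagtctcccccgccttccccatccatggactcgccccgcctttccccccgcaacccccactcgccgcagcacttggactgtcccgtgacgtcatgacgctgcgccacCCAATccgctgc
Ndel1: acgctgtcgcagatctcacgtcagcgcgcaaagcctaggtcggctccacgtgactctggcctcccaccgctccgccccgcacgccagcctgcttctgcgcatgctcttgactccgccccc
Ube2c and Bub3 have both motifs in these bases, Ttk, Nek2 and Cenpe only CCAAT, and Mad2l1 and Ndel1 neither in the whole window. A match is a description of the letters and shows no binding.

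Among the kinesins that carry cargo, Kif5b, Kif13a, Kif1b and Kif16b had a probe set that rose. Kif5b, a heavy chain of conventional kinesin, read 1414, 1471, 1526 and 1391 in Ca-free, against 994, 1083, 607 and 651.5 in control (1418431_at), with no overlap and with control arrays 3 and 4 far below the other controls. Its change of 0.82 (adjusted p = 0.00174) was 0.47 against control arrays 1 and 2 alone and 1.16 against control arrays 3 and 4 alone, and the other 4 probe sets of Kif5b changed by -0.16 to 0.14, with no call. Kif13a, a motor of endosomal vesicles, read 701, 577, 714 and 655 in Ca-free, against 421, 364, 471 and 536 in control (1447853_x_at, log2 change 0.54, adjusted p = 0.00277). Its lowest Ca-free array, 577, was near its highest control, 536.

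Kif1b, a motor of mitochondria and synaptic vesicle precursors, read 437, 341, 339 and 433 in Ca-free, against 299, 300, 219 and 216 in control (1425270_at, log2 change 0.54, adjusted p = 0.00521). Ca-free arrays 1 and 4 were the highest and control arrays 3 and 4 the lowest, and the call was lost against control arrays 1 and 2 alone (0.33, adjusted p = 0.0715). Kif16b, a motor of early endosomes, rose on 1429063_s_at (0.31, adjusted p = 0.0148). Of the motors of the spindle, Kif20b was called higher (1181, 1888, 1867 and 1347 in Ca-free, against 1225, 1285, 1102 and 1099 in control, log2 change 0.38, adjusted p = 0.0267), but its groups overlapped and the call was not made under all 3 scalings. Kif11 (0.03), which pushes spindle poles apart, Kif23 (-0.05) and Kif20a (0.08), both of the cleavage furrow, Kif22 (-0.10) and Kif4 (0.11), both chromosome motors, and Kif18b (0.04) were not called on their brightest probe sets. Kif18a, which damps chromosome movements, read 1152 and 1330 on Ca-free arrays 2 and 3 and 809 and 695 on arrays 1 and 4, on either side of the controls at 816 to 979 (0.10, adjusted p = 0.634).

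**Figure D3:**
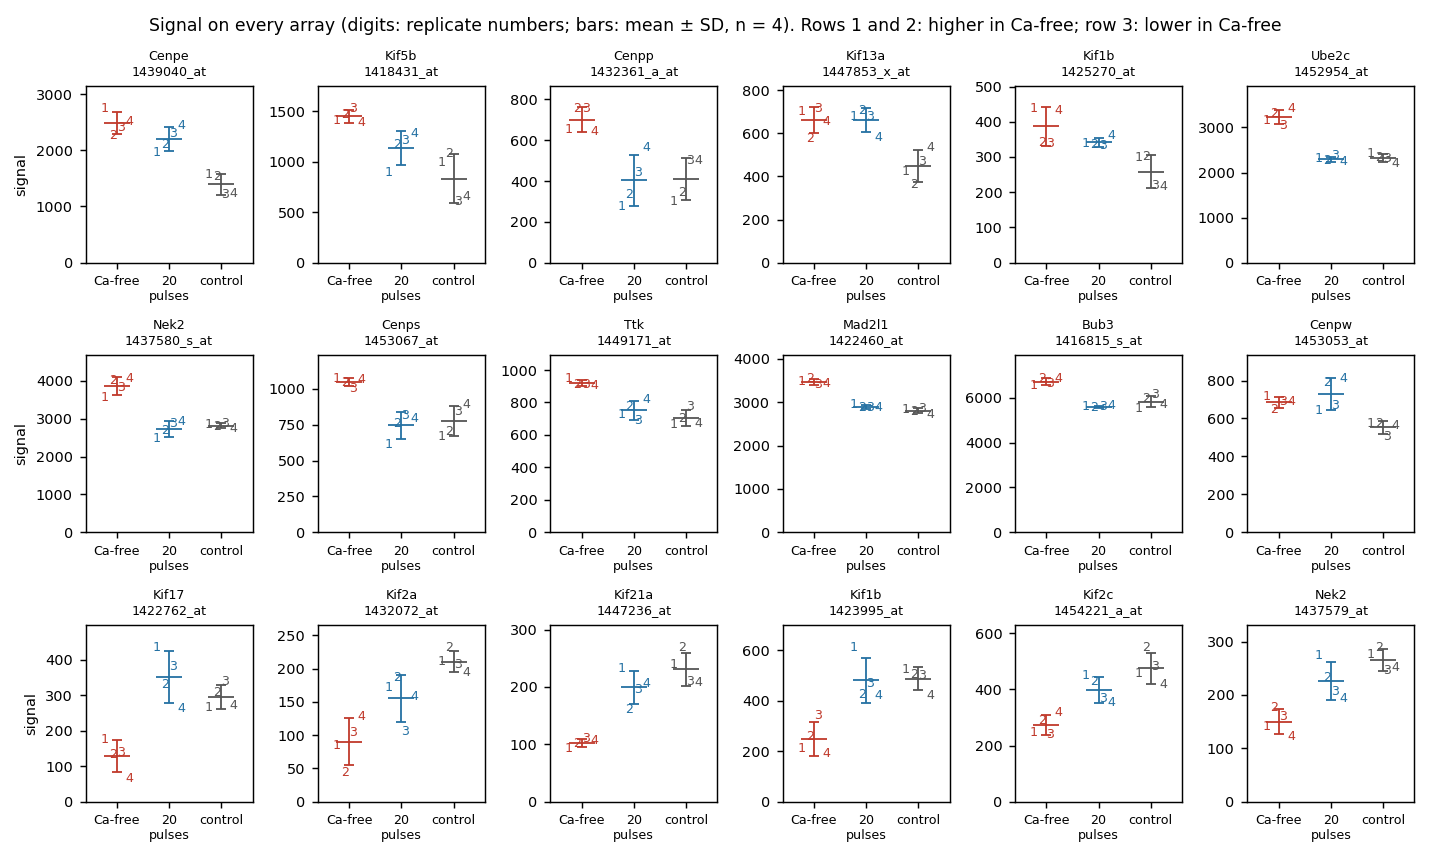
Signal (y axis, from 0) of 18 member probe sets on every array, in the order Ca-free, 20 pulses, control; digits are replicate numbers and bars the mean ± SD (n = 4). In the upper 2 rows every Ca-free array lies above every control array, and in the lowest row every Ca-free array lies below every control array.

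Of the 29 decreases, 20 were of kinesin probe sets, which made up 72 of the 130 tested. Over the whole array 29.7% of the tested probe sets were lower. Members with a mean signal under 300 held 17 of the 29 decreases (39.5% of 43, against 39% of all such probe sets). Kif17, known as a motor of dendrites and cilia, read 175, 134, 139 and 65.85 in Ca-free, against 265, 309, 338 and 271 in control, a change of -1.08 (SE 0.20, adjusted p = 0.00138). Kif21a, which limits microtubule growth, read 93.0, 101, 110 and 107 in Ca-free, against 239, 268, 209 and 207 in control, a change of -0.96 (adjusted p = 3.4e-04). On these probe sets every Ca-free array was under every control array, but other probe sets of the genes were not called (Kif17 1419827_s_at at -0.01, and Kif21a 1450738_at at -0.27 and 1455029_at at 0.19). A probe set of Kif2a, a kinesin that shortens microtubules, read 84.5, 43.9, 104 and 128 in Ca-free, against 211, 231, 206 and 195 in control (1432072_at, -1.04, adjusted p = 0.00213). Kif2c, its relative at the centromere, read 246, 290, 240 and 317 in Ca-free, against 458, 548, 483 and 416 in control (1454221_a_at, -0.74, adjusted p = 6.62e-04). Neither decrease was seen on the brightest probe set of the gene, which had 0.19 (adjusted p = 0.0522) for Kif2a and 0.12 (adjusted p = 0.221) for Kif2c.

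Kif15, Kif3b, Kif5a, Kif6, Kif12, Kif21b and Kif26b were also called lower on their brightest probe set, with log2 changes of -0.74 to -0.30, though not under all 3 scalings. Of these, Kif3b, a subunit of the kinesin of ciliary transport, had 3 of 4 probe sets called lower. Its brightest read 248, 344, 300 and 290 in Ca-free, against 452, 444, 479 and 482 in control (-0.61, adjusted p = 7.37e-04). Beside these low signals, summed markers of oviduct and uterine epithelium were 714 to 936 in Ca-free, 1160 to 1340 in 20 pulses and 1350 to 1550 in control (6 of 7 with a mean of at least 100; Muc1 had 59.0). Summed markers of cumulus and granulosa cells were 406 to 524 in Ca-free, 624 to 880 in 20 pulses and 770 to 1070 in control (2 of 7; Amh had 22.0), and of blood cells 413 to 497 in Ca-free, 590 to 875 in 20 pulses and 486 to 742 in control (3 of 4). Summed oocyte markers overlapped between the groups, at 1880 to 2430 in Ca-free, 1740 to 2170 in 20 pulses and 2050 to 2440 in control. The part of cells of these types in the decreases was not tested, nor was that of the array-wide shift at low signal.

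Probe sets of the same gene could go opposite ways. Of 33 genes with at least 2 tested probe sets, 5 had a probe set called higher and another called lower in Ca-free (Cenpp, Kif13a, Kif16b, Kif1b and Nek2). Kif1b had 2 of 7 called each way. Its probe set 1423995_at read 210, 259, 342 and 189 in Ca-free, against 524, 506, 501 and 420 in control (-0.91, adjusted p = 9.38e-04), the reverse of 1425270_at. Nek2 read 141, 176, 160 and 122 in Ca-free, against 276, 288, 246 and 251 in control on 1437579_at (-0.72, adjusted p = 0.00135), with no overlap, while its probe set 1417299_at changed by 0.02. In Cenpp, 1432362_at changed by -0.57 (adjusted p = 0.00783) and 1429095_at, the brightest, by 0.22 (adjusted p = 0.128). The share of such genes over the whole array was not computed. The probe sets called lower in Cenpp, Kif13a and Kif16b had mean signals of 180, 106 and 227. Below 300, 39% of all tested probe sets were called lower. Those of Kif1b called lower averaged 407 and 344, and 31% of all at 300 to 1000 were lower. The part of signal level was not tested, and the transcripts that each probe set detects were not analysed here.

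**Figure D4:**
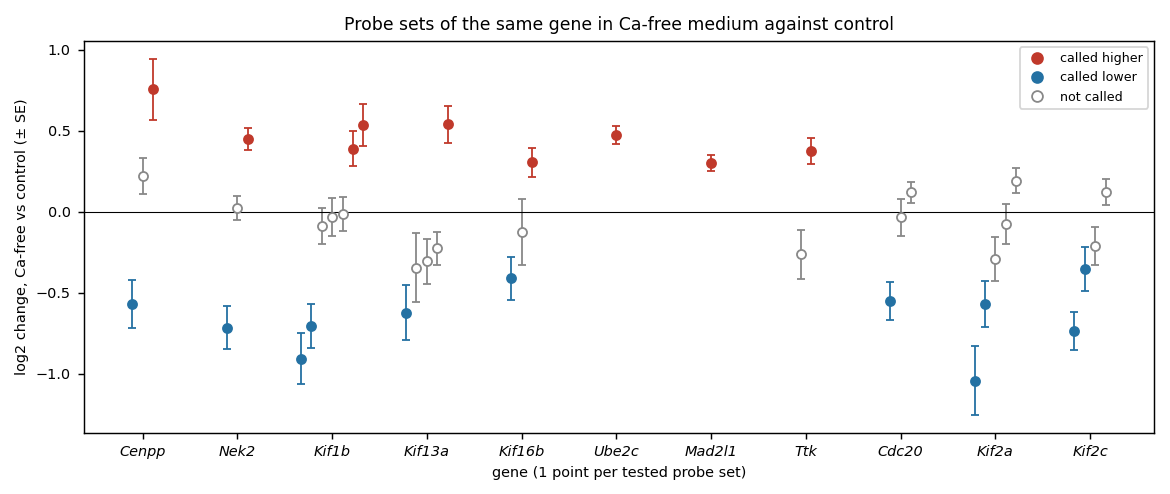
Log2 change in Ca-free against control (y axis, ± SE) of every tested probe set of 11 member genes (x axis); red is called higher, blue called lower and open circles not called. Cenpp, Nek2, Kif1b, Kif13a and Kif16b hold points of both colours.

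After 20 pulses, 3 of 130 probe sets were higher than in control (2.31%, against 1.1% of all tested probe sets) and 0 were lower by limma's adjusted p (0.374% of all), with 13 higher and 12 lower at an unadjusted p under 0.05. The 3 were in Ndel1, Cenpe and Kif13a, and each was called under all 4 scalings (0.935% of all tested probe sets were called higher under all 4). The median change of the members was -0.03, the same as that of all tested probe sets. Every array of 20 pulses lay above every control array in 9 probe sets (6.92%, against 5.85%) and below in 7 (5.38%, against 5.11%).

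Ndel1, which works with Lis1 to regulate the motor dynein, read 304, 366, 262 and 324 after 20 pulses, against 131, 103, 127 and 42.45 in control (1424893_at). The lowest array of 20 pulses was at 262 and the highest control at 131. The log2 change was 1.44 (SE 0.23, adjusted p = 0.00848), and 1.18 to 1.56 with any 1 array left out. The same probe set read 136, 178, 209 and 121 in Ca-free, which overlapped the controls (0.58, adjusted p = 0.0527; called without control array 1, control array 3 or Ca-free array 4, adjusted p = 0.0375 to 0.0411). With quantile normalization (0.90, adjusted p = 0.0118) and median scaling (0.92, adjusted p = 0.00338) it was called higher in Ca-free than in control. It was lower in Ca-free than after 20 pulses (-0.86, adjusted p = 0.012), but not with quantile normalization (-0.57, adjusted p = 0.11). The other probe set of Ndel1, 1422568_at, read 1766, 1555, 1489 and 1600 after 20 pulses, against 1773, 1648, 1617 and 1508 in control, with a change of -0.03 (adjusted p = 0.916) and overlapping groups.

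Cenpe read 1968, 2105, 2297 and 2434 after 20 pulses, against the control values given above (1571, 1534, 1222 and 1239), again with no overlap (1439040_at, log2 change 0.65, adjusted p = 0.00697). Against control arrays 1 and 2 alone the change was 0.49, and against control arrays 3 and 4 alone 0.82. The difference between Ca-free and 20 pulses in this probe set was not called (0.17, adjusted p = 0.181), and the other Cenpe probe set changed by 0.05 after 20 pulses (adjusted p = 0.783). Both treatments were set against the same controls. Kif13a read 680, 708, 677 and 581 after 20 pulses, against 421, 364, 471 and 536 in control (1447853_x_at, log2 change 0.54, adjusted p = 0.0324). This call was lost in 7 of 8 fits with 1 array left out, where the change was 0.45 to 0.62, and against control arrays 3 and 4 alone (0.37, adjusted p = 0.135).

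The checkpoint and ubiquitin genes that rose in Ca-free were not called after 20 pulses. Mad2l1 read 2951, 2870, 2871 and 2870 after 20 pulses, just above the controls at 2728 to 2865 (0.04, adjusted p = 0.726). Ube2c read 2309, 2266, 2368 and 2244 after 20 pulses, all within the controls' range of 2210 to 2418 (-0.01, adjusted p = 0.944). Ttk read 723, 776, 687 and 818.5 after 20 pulses, against 665, 704, 773 and 671 in control (0.09, adjusted p = 0.629). Bub3 read 5599, 5577, 5601 and 5683 after 20 pulses, against 5544, 5961, 6144 and 5713 in control (-0.06, adjusted p = 0.603), and Nek2 read 2470, 2681, 2870 and 2936 after 20 pulses, against 2857, 2802, 2875 and 2745 in control (-0.04, adjusted p = 0.793). The groups of Ttk, Bub3 and Nek2 overlapped. Kif24, a kinesin that restrains cilia, had the largest decrease after 20 pulses, at 268, 330, 209 and 185, against 600, 278, 530 and 534 in control, but 1 low control overlapped and it was not called (-0.87, adjusted p = 0.0636). Plk1 read 375, 521, 370 and 357 after 20 pulses, against 203, 303, 291 and 445 in control (0.38, adjusted p = 0.371).

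The other genes named in the rule were not called after 20 pulses either. Bub1 read 1695, 1751, 1622 and 1707 after 20 pulses, against 1760, 1703, 1804 and 1765 in control (-0.05, adjusted p = 0.707), and Bub1b read 1600, 2040, 1809 and 2050 after 20 pulses, against 1858, 1879, 1904 and 1880 in control (-0.01, adjusted p = 0.963). Cdc20 read 10720, 8867, 10090 and 10520 after 20 pulses, against 9497, 10140, 11360 and 10840 in control (-0.06, adjusted p = 0.72). These 3 pairs of groups overlapped.

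Aurka read 3664, 3488, 3227 and 3594 after 20 pulses, against 3656, 3720, 4240 and 4223 in control (-0.18, adjusted p = 0.223), and only 1 array of 20 pulses reached the lowest control. Aurkb read 794, 892, 806.5 and 898 after 20 pulses, against 937, 977.5, 1063 and 1104 in control (-0.26, adjusted p = 0.139), so all arrays of 20 pulses lay below all controls without a call. In the Ndc80 complex, the groups overlapped in all 4 subunits. Ndc80 read 657, 676, 774 and 521 after 20 pulses, against 609, 768, 784 and 720 in control (-0.13, adjusted p = 0.647), and Nuf2 read 816, 1050, 702 and 786 after 20 pulses, against 897, 1011, 911 and 897 in control (-0.16, adjusted p = 0.564). Spc24 read 1618, 1605, 1798 and 1782 after 20 pulses, against 1524, 1577, 1638 and 1838 in control (0.05, adjusted p = 0.847). Spc25 read 1785, 1804, 1798 and 1304 after 20 pulses, against 1642, 1567, 1535 and 1643 in control (1424118_a_at, 0.05, adjusted p = 0.88), with 3 arrays of 20 pulses above and 1 below all controls.

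**Figure D5:**
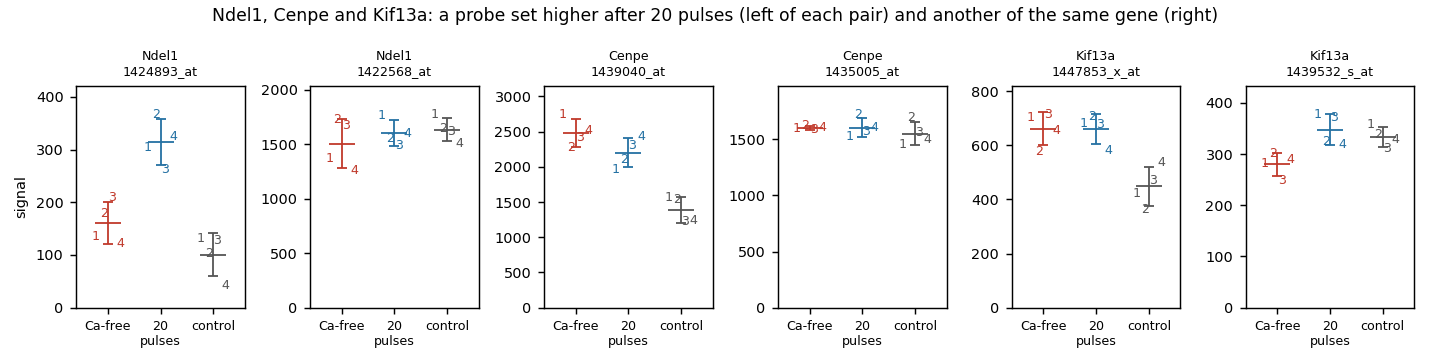
Signal (y axis, from 0) on every array of the probe sets of Ndel1, Cenpe and Kif13a called higher after 20 pulses (left of each pair) and of another probe set of the same gene (right), in the order Ca-free, 20 pulses, control; digits are replicate numbers and bars the mean ± SD (n = 4). In each left panel all 20 pulses arrays lie above all control arrays, and in each right panel they overlap.

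Ca-free was also compared with 20 pulses directly. Of 130 probe sets, 11 were higher in Ca-free (8.46%, against 9.22% of all tested probe sets) and 21 lower (16.2%, against 23.4%), and under 3 scalings 6 were higher (4.62%, against 3.74%) and 4 lower (3.08%, against 2.32%). With hybridization control scaling added, 1 was higher (0.769%) and 4 lower (3.08%). The share over the whole array was not computed for these calls. The hybridization controls themselves read higher in Ca-free than in 20 pulses, by 0.37. Nek2 read 3556 to 4069 in Ca-free and 2470 to 2936 after 20 pulses (log2 difference 0.49, adjusted p = 6.35e-04), and Ube2c 3050 to 3415 in Ca-free and 2244 to 2368 after 20 pulses (0.49, adjusted p = 4.11e-04). With hybridization control scaling neither Nek2 (0.13, adjusted p = 0.147) nor Ube2c (0.12, adjusted p = 0.169) was called. Cenpp, on 1432361_a_at, read 642 to 754 in Ca-free and 277 to 563 after 20 pulses (0.79, adjusted p = 0.00759). Cenps (0.48), Ttk (0.28) and Cenpl (0.38) were the other 3 called under 3 scalings. Cenpp, Nek2 and Ttk each had another probe set called lower in this comparison, such as Cenpp 1432362_at (-0.60, adjusted p = 0.00798). With Cenpa, they were the 4 genes called both ways, of 33 with at least 2 tested probe sets. The share of such genes over the whole array was not computed. Kif17 (-1.29, adjusted p = 0.00104), Kif21a (-0.77, adjusted p = 0.00171), Kif1b on 1423995_at (-0.88, adjusted p = 0.00193) and Spc25 on 1453815_at (-0.64, adjusted p = 0.00157) were the 4 lower ones.

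Other genes of chromosome segregation and microtubule motors, taken from 8 lists with 114 tested genes outside the rule, had 23 genes higher (20.2%, against 10.6% of all tested probe sets) and 12 lower (10.5%, against 29.7%) in Ca-free than in control, by the brightest probe set of each gene. Under 3 scalings 13 were higher (11.4%, against 6.44%) and 0 lower (4.51% of all), with 30 higher and 18 lower at limma's unadjusted p under 0.05. Their median change was 0.06. Brightest probe sets are unlike all tested probe sets in signal. Of all probe sets averaging at least 1000, 30.1% were higher and 8.43% lower, and of those at 300 to 1000, 8.71% and 31%. The part of signal level in these counts was not tested. In the anaphase-promoting complex 4 of 17 were higher (23.5%) and 1 lower (5.88%), to be read beside those shares by signal. The scaffold subunit Anapc1 read 1648 to 1772 in Ca-free and 1116 to 1221 in control (0.52, adjusted p = 3.6e-04), Cdc26 rose by 0.39 (adjusted p = 0.00236) and Fzr1, the activator of late mitosis, was lower (-0.40, adjusted p = 0.00524). Of 8 passenger and centromere regulators 2 were higher (25%) and 1 lower (12.5%). Birc5 was at 0.28 (adjusted p = 0.00173), Incenp at 0.21 (adjusted p = 0.0168) and Sgo2a, a guardian of cohesion, at -0.33 (adjusted p = 0.0129). The calls of Fzr1, Incenp and Sgo2a were not made under all 3 scalings.

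Cohesin and condensin had 6 of 17 genes higher (35.3%) and 1 lower (5.88%) in Ca-free. Over all probe sets averaging at least 1000, 30.1% were higher and 8.43% lower, and at 300 to 1000, 8.71% and 31%. Ncapg, a condensin subunit, read 1496, 1314, 1190 and 1442 in Ca-free and 1135, 1026, 1055 and 1103 after 20 pulses, against 723, 579, 418 and 416 in control. Both treatments lay above all controls (log2 changes 1.33, adjusted p = 1.04e-04, and 1.01, adjusted p = 0.00632), and control arrays 3 and 4 were again the lowest. Wapl, which releases cohesin, had 0.43 (adjusted p = 3.47e-04) and Smc4, a condensin subunit, 0.41 (adjusted p = 0.00101). After 20 pulses, 2 of the 114 genes were higher (1.75%, against 1.1% of all tested probe sets), Ncapg and the cohesin subunit Stag1 (0.33, adjusted p = 0.0478). By limma's adjusted p 0 were lower (0.374% of all), with 13 higher and 10 lower at an unadjusted p under 0.05.

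Dynein and dynactin, the motor that walks the other way and its cofactor, had 6 of 20 genes higher (30%) in Ca-free and 3 lower (15%). The array shares by signal given above apply to this and the remaining lists. Actr1a (0.43, adjusted p = 4.8e-04) and Dctn2 (0.55, adjusted p = 6.7e-04) were higher and Dctn1 was lower (-0.49, adjusted p = 0.00189), all 3 being dynactin subunits. The call of Dctn1 was not made with median scaling (-0.08, adjusted p = 0.483). The list of kinesin light chains, cargo adaptors and Kifc motors had 0 of 11 higher by limma's adjusted p, with 2 at an unadjusted p under 0.05, and 3 lower (27.3%). Those were Klc1 (-0.71, adjusted p = 0.00388), Klc4 (-0.38, adjusted p = 0.00222) and Kifc3 (-0.59, adjusted p = 0.0101), none of them under all 3 scalings.

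Of 13 other kinetochore subunits, Spdl1, which brings dynein to the kinetochore, was higher, at 1440 to 1996 in Ca-free and 869 to 1312 in control (0.71, adjusted p = 0.00128), and Ska3 was lower (-0.58, adjusted p = 0.00276), while Ska2 was not called (-0.41, adjusted p = 0.0542). In the checkpoint's RZZ complex and regulators, Zw10 was higher (0.50, adjusted p = 5.11e-04), Mad2l1bp, which helps silence the checkpoint, was lower (-0.25, adjusted p = 0.0342) and Kntc1 was not called (-0.21, adjusted p = 0.123). Of 23 spindle factors 3 were higher (13%) and 1 lower (4.35%). Among them were Stmn1, which destabilises microtubules (0.34, adjusted p = 0.00113), Hmmr (0.38, adjusted p = 0.0121) and Ckap5 (-0.46, adjusted p = 0.0098). The calls of Ska3, Mad2l1bp, Hmmr and Ckap5 were not made under all 3 scalings, and with median scaling Mad2l1bp was at 0.16 (adjusted p = 0.206).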

How the data were processed

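RNA of mouse blastocysts was measured on 12 Affymetrix arrays, 4 in each of 3 groups, per the labels. The deposited values are linear intensity made with MAS5, per the submitters' processing notes, with no version stated. Every deposited array had the same 2% trimmed mean (150.001). Arrays were rescaled to a trimmed mean of 500, 32 was added and log2 taken. Probe sets with a mean of at least 100 were tested with limma 3.58.1 in R 4.3.3 (lmFit on the 12 arrays together, eBayes with trend), adjusting p by Benjamini-Hochberg over 27808 probe sets. Detection calls, scan dates and image files were not used. Precision is limited by the 4 arrays per group. The platform's probe table, which can be old, pairs 34945 probe sets with 1 gene, 932 with several and 9160 with none, and names come from it. Array controls (64) were left out of the tests, and 9 hybridization control probe sets gave an alternative scaling. Their second set of 9 was added after seeing the data. Other alternatives were quantile and median scaling, 1 or 100 added, no filter or a minimum of 300, no trend, 8 arrays only, a replicate block, an adjusted p of 0.01, pairs of control or Ca-free arrays, and each array left out.

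The members and lists were chosen with earlier results of these data known. Named were, per treatment against control, the 6 largest changes each way (3 each way between treatments) called under 3 scalings without overlap, plus the 16 genes named in the rule and Cenpe. From each other list the 3 genes with the smallest p were named. Further members were named after their values were seen. The brightest tested probe set stands for a gene. Promoters are from RefSeq, GRCm38.p6. The procedure was tested on simulated data.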

Additional observations from a re-analysis of the deposited data

Results flagged for a closer look

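Among 84 groups of 4 arrays (28 named probe sets in 3 groups each), 5 held an array whose distance to its nearest neighbour was a larger share of the group's range than Dixon's critical value for 4 samples allows. Chance gives about 1 in 20 groups. Plk1 read 520.9 on 20 pulses array 2, with the nearest of its group at 375.1. Nuf2 read 1011 on control array 2, with the nearest at 911.1. Spc25 (1424118_a_at) read 1304 on 20 pulses array 4, below the nearest at 1785. Mad2l1 read 2951 on 20 pulses array 1, with the nearest at 2871. Ttk read 949 on Ca-free array 1, with the nearest at 910.4.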

How the results depend on the processing

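Scaling moved the counts most. In Ca-free against control (16 higher, 29 lower of 130), quantile normalization gave 14 lower, median scaling 73 higher and 8 lower, hybridization control scaling 7 higher and 50 lower, and its second probe sets 3 higher and 80 lower. The lower count was 11 with a minimum signal of 300, 17 at an adjusted p of 0.01 and 17 with control arrays 3 and 4 alone. For 20 pulses against control (3 higher, 0 lower), the higher count was 11 with hybridization control scaling, 5 with its second probe sets and 5 with control arrays 3 and 4 alone, and the lower count 2 with a minimum of 300 and 3 with control arrays 3 and 4. For Ca-free against 20 pulses (11 higher, 21 lower), the counts were 7 lower with quantile normalization, 63 higher and 4 lower with median scaling, 1 higher and 85 lower with hybridization control scaling, 0 higher and 107 lower with its second probe sets, 9 lower with a minimum of 300, and 7 higher and 9 lower at an adjusted p of 0.01. With 1 array left out, the counts ranged over 15 to 17 higher and 23 to 27 lower (Ca-free against control), 2 to 3 higher and 0 to 1 lower (20 pulses against control), and 9 to 14 higher and 17 to 20 lower (Ca-free against 20 pulses). The single lower call after 20 pulses came without control array 1 or control array 2. The cause of these shifts was not tested.

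Among values called on at least 1 side, directions turned in Ca-free against control with median scaling for Aurkb (0.29), Nuf2 (0.045), Spc25 (0.39), Ndel1 on 1422568_at (0.28), Sgo2a (0.070), Klc4 (0.015) and Mad2l1bp (0.16), and with hybridization control scaling for Bub3 (-0.000687). With the second hybridization probe sets they turned for Cdc20 (-0.25), Aurka (-0.34), Bub1b (-0.25), Bub3 (-0.16), Mad2l1 (-0.063), Birc5 (-0.086), Incenp (-0.15) and Stmn1 (-0.021). Against 20 pulses, Ndel1 on 1422568_at turned with median scaling (0.27), and Nek2 (-0.024) and Ube2c (-0.030) with the second hybridization probe sets. Values called on neither side changed sign too. In Ca-free against control this was seen 24 times in 10 probe sets. Across the scalings it was seen for Plk1 (0.29), Spc24 (0.18) and Kntc1 (0.19) with median scaling, Plk1 (0.19) and Aurka (-0.11) with quantile normalization, and Cdc20 (-0.087), Aurka (-0.18), Ndc80 (-0.055), Bub1 (-0.062) and Bub1b (-0.090) with hybridization control scaling. With its second probe sets Ndc80 (-0.21) and Bub1 (-0.22) did so. The rest, with some arrays left out, were of Aurka, Plk1, Spc25 and Ndel1 on 1422568_at. After 20 pulses against control, 10 uncalled probe sets changed sign 32 times, and between the treatments 1 did. Some named probe sets kept their direction and call in every alternative run for them. In Ca-free against control, the increases that did so were of Cenpe, Kif5b, Ncapg and Spdl1. The decreases were of Kif17, Kif2a (1432072_at), Kif21a, Kif1b (1423995_at), Kif2c (1454221_a_at) and Nek2 (1437579_at). After 20 pulses, Ndel1 (1424893_at) and Cenpe did so. Between the treatments, the decreases of Kif17, Kif1b (1423995_at) and Kif21a did.

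Same-numbered arrays of different groups deviated together only weakly, if at all (mean r 0.0156, range -0.058 to 0.101 over 12 pairs, against a mean r of -0.0052 for other pairs). For 7 of 12 arrays the closest one in another group had the same number. The number that chance would give was not computed, so a link between same-numbered arrays remains possible. A block for replicate number ended the call of Kif13a after 20 pulses (0.54, adjusted p = 0.0556) and of Mad2l1bp in Ca-free (adjusted p = 0.0565), and gave calls to Ndel1 on 1424893_at (0.58, adjusted p = 0.043) and Spc24 (-0.23, adjusted p = 0.0499) in Ca-free. With 1 array left out, calls were also lost for Incenp (without control array 3) and Mad2l1bp (without control array 3 or 4 or Ca-free array 1 or 4), and gained for Ska2 (without control array 3 or Ca-free array 2 or 3).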
